A study of Mus musculus with 6 samples.

Results

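The subject here is the run of 10 glycolytic enzyme genes that carry glucose-6-phosphate to phosphoenolpyruvate: Gpi1, Pfkl, Pfkm, Pfkp, Aldoa, Tpi1, Gapdh, Pgk1, Pgam1 and Eno1. They were taken by symbol from a table of 19844 genes, all 10 were found, and all 10 passed the filter of 1 FPKM or more in at least 3 of 6 libraries, which left 13247 genes for testing. FPKM are scaled for transcript length and library size, so levels of different genes can be set side by side. The tissue was distal colon of C57BL6 mice, taken at day 17 of AOM/DSS treatment. This pairs a carcinogen (azoxymethane) with an agent that damages the gut lining (dextran sulfate sodium), and both groups received it. One group was 3 wild-type mice and the other was 3 knockouts for ChREBP, the glucose-sensing factor whose gene is Mlxipl, and the design compares the latter with the former. Nothing used here gives the age of the mice, the deleted part of Mlxipl or whether the deletion covers all tissues.

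Glycolysis splits a hexose into a pair of trioses and oxidises them to pyruvate, with a net gain of ATP and NADH. Most of its steps run near equilibrium. Phosphofructokinase, which commits fructose-6-phosphate to the pathway, does not, and is the main controlled step of this run. The colon lining burns butyrate as well as glucose, and proliferating, inflamed or oxygen-poor tissue is known for high glycolytic gene expression. In liver, ChREBP raises genes of glycolysis and fat synthesis when glucose is plentiful, through paired E-box elements.

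The labels call all 6 mice female, yet the Y-linked genes Ddx3y, Uty, Kdm5d and Eif2s3y were expressed in each library, with summed levels of 46.75 to 56.99 FPKM, and Xist stayed between 0.02 and 0.04 FPKM. This went against the labels in both groups alike, so no library could be left out for it. Mlxipl itself read 5.84, 7.49 and 7.27 FPKM in wild-type replicates 1 to 3 and 3.40, 5.66 and 5.04 in knockout replicates 1 to 3, so the targeted transcript was lower but present in the libraries labelled knockout (ratio of means 0.684, limma adjusted p = 0.9995). Depth, estimated from short genes whose values step by whole reads, was 17700000 to 18400000 reads per library. Library totals lay between 439107 and 478500 FPKM, the highest in knockout replicate 2. The epithelial markers that define colon lining, 12 of 12 tested, summed to between 8134 and 9403 FPKM per library, so the labelled tissue carried its defining transcripts.

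The 10 genes spanned a wide range of levels, and their order hardly changed between libraries. Gapdh stood highest at a mean of 1789 FPKM over the 6 libraries (range 1601.60 to 1927.19) and was the 9th most abundant gene of the table. Aldoa followed at 771 FPKM (725.85 to 844.70) and Eno1 at 323 FPKM (293.59 to 376.47). Gpi1 at 246 FPKM and Tpi1 at 235 FPKM had overlapping ranges, and Gpi1 was above Tpi1 in 5 of 6 libraries. Pgk1 at 177 FPKM and Pgam1 at 148 FPKM also had overlapping ranges, though Pgk1 was above Pgam1 in 6 of 6 libraries. Pfkp at 43.5 FPKM and Pfkl at 39.2 FPKM overlapped too, with Pfkp above Pfkl in 6 of 6. They were near level in wild-type replicate 1 (43.06 and 42.95) and knockout replicate 1 (49.02 and 48.59). Pfkm was lowest at 4.80 FPKM (3.63 to 6.43). The other neighbours in that order had ranges that did not overlap. The summed transcript of the 3 phosphofructokinase genes thus lay below each of the other steps: mean Gpi1 was 2.81 times that sum, mean Aldoa 8.81 times and mean Gapdh 20.4 times. These are transcript levels and say nothing of enzyme amount.

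**Figure D1:**
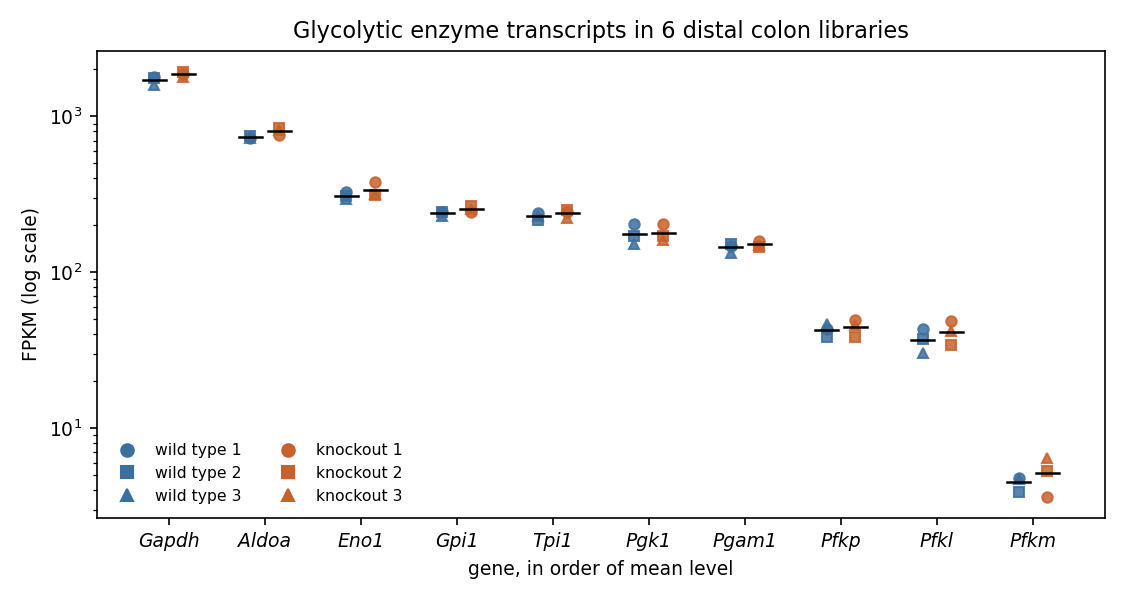
FPKM of the 10 enzyme genes (log axis) in each of the 6 libraries, in order of mean level. Points are libraries, with blue for wild type and orange for knockout, and black bars are group means with n = 3. Gapdh lies near 1789 FPKM and Pfkm near 4.80, and within each gene the groups lie close together, with Aldoa the 1 gene whose groups do not overlap.

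How far a level can be trusted depends on the copies of the gene as well as on depth. At the estimated depth and the length of its longest matching transcript, Pfkm rested on about 249 reads per library and Gapdh on about 45692, which gives counting errors near 6.34% and 0.468%. Gapdh, Eno1 and Pgk1 have close retrocopies. Of the 50-base stretches of the Gapdh transcript 82.5% occur exactly in transcripts of other genes, and the share was 72.2% for Eno1, 68.0% for Pgk1, 41.5% for Pgam1, 19.3% for Gpi1, 13.5% for Aldoa and 7.51% for Tpi1. It was 0.0543% for Pfkl and 0% for Pfkm and Pfkp. Eno1b, the retrocopy that shares 70.5% of these stretches with Eno1, was listed at 0.08 to 0.25 FPKM, and Gm12070, which shares 65.9% with Gapdh, at 0 to 0.51 FPKM. No other gene listed with values shared such a stretch with Pgk1, Pgam1 or Tpi1. The length of 50 bases was chosen here and is not the read length. By this measure the values of the genes with large shares are uncertain as to which copy their reads came from.

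Promoter sequence is shown for the members in which the core letters shared by hypoxia response elements and E-boxes were found upstream of a start, because ChREBP binds E-boxes and hypoxia-inducible factors drive several of these genes. The windows run from 250 bases before to 50 after each RefSeq start (assembly GRCm38.p6, an older build than the mm39 named for the values). All 10 genes matched, with 17 windows. ACGTG, read on both strands, was in a window of 5 of the 10 genes (Pfkm, Aldoa, Gapdh, Pgk1 and Pgam1) and of 21.8% of all 27025 genes. A gene counts if any of its windows matches, and the enzymes have more windows per gene than all genes do. By window ACGTG was in 7 of the 17 and in 19.6% of all 32851, and overlapping windows of Aldoa held the same site. The E-box CACGTG, which contains ACGTG, was in 1 of the 10 (Pfkm) and in 8.09% of all genes. The GC box GGGCGG was in 8 of the 10 and in 38.2% of all genes, and TATAAA in 0 of the 10 and in 15.7% of all. A strict pair of E-boxes, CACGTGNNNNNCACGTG, was in 0 of 32851 windows, so this search cannot tell promoters apart. In Gapdh the match lay 42 bases past the start and is not shown. The stretches of 70 bases below are written 5′ to 3′ on the gene's strand, with ACGTG on either strand in capitals. They are Pgk1 at chrX:106186919-106186988 (plus strand), Aldoa at chr7:126799361-126799430 (minus strand), Pgam1 at chr19:41911707-41911776 (plus strand) and the most upstream start of Pfkm at chr15:98092404-98092473 (plus strand).
Pgk1: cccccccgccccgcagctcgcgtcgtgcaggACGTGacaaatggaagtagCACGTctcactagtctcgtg
Aldoa: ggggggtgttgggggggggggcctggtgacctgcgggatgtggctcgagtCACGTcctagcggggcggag
Pgam1: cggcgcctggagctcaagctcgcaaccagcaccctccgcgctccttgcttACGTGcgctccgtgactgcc
Pfkm: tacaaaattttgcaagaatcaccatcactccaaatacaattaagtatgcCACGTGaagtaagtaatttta
Pgk1 carries a pair of matches in opposite orientation, Aldoa and Pgam1 a single match each, and Pfkm a full E-box. A match is a string of letters, not a bound site.

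None of the 10 genes passed the test of knockout against wild type. limma on log2(FPKM + 1) called 0 of 10 members at a Benjamini-Hochberg adjusted p under 0.05 (adjusted p = 0.9995 for each), where 0.0151% of all 13247 genes were called, and 0 of 10 had an unadjusted p under 0.05, where 3.4% of all genes did. The knockout mean was nonetheless the higher one in all 10, by ratios of 1.02 for Pgk1 to 1.15 for Pfkm, while 52.7% of all genes had a positive log2 fold change. The 10 genes were read in the same 6 libraries and chosen with earlier results known. Their count of positive signs is therefore not 10 separate observations and was not tested. The members' median log2 fold change was 0.10, beside 0.01 over all genes tested. Without knockout replicate 1 that median was 0.05, with 8 of 10 positive, and without wild-type replicate 3 it was 0.06, with 9 of 10 positive. The 95% intervals of all 10 stayed inside 1.5-fold up or down as log2(FPKM + 1), the widest being that of Pfkm (-0.28 to 0.56). Changes inside a gene's own interval are not excluded by these 6 libraries. As folds of FPKM + 1, the lowest lower end was 0.814 (Pgk1) and the highest upper end 1.47 (Pfkm). For Gpi1 the ends were 0.917 and 1.23. The design text counts 3 mice per group. limma's p-values set the difference of means against the spread between those samples, moderated by the spread of all tested genes.

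**Figure D2:**
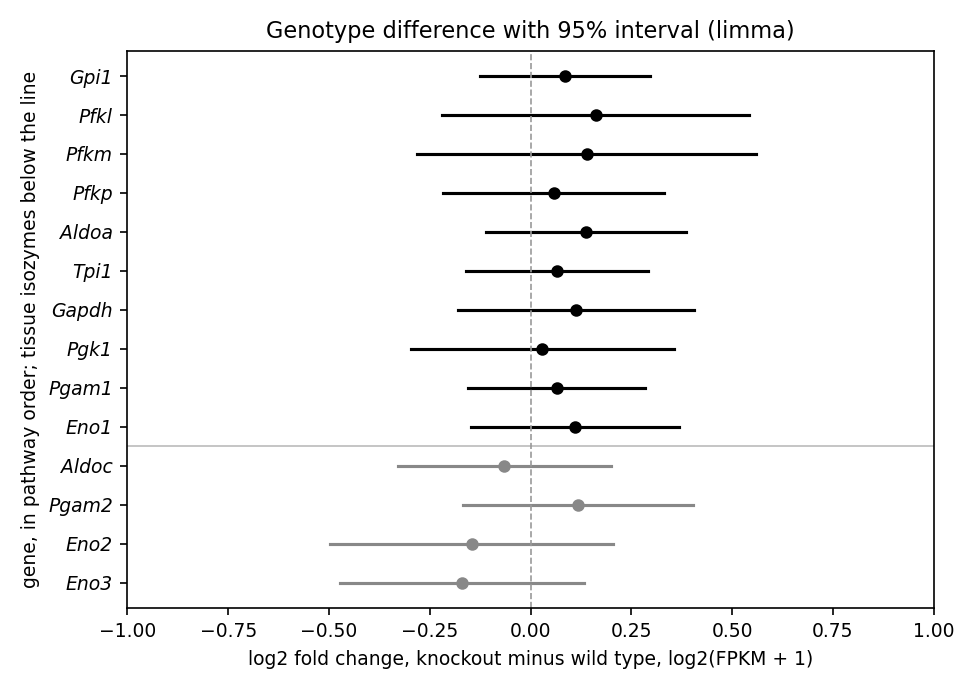
Log2 fold change on the log2(FPKM + 1) scale, knockout minus wild type, with limma's 95% interval (6 libraries, 3 per group), for the 10 enzymes in black and for tissue isozymes in grey. All 10 black points lie right of 0 with intervals that include it and the grey intervals include it too.

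Gpi1, glucose-6-phosphate isomerase, makes fructose-6-phosphate at the head of the run. It read 242.17, 243.88 and 230.41 FPKM in wild-type replicates 1 to 3 and 242.46, 264.10 and 254.38 in knockout replicates 1 to 3. Knockout replicates 2 and 3 were above every wild-type library and knockout replicate 1 was between wild-type values, so the groups overlapped on the FPKM scale. The means were 239 ± 7.33 (SD, n = 3) and 254 ± 10.8, a log2 fold change of 0.09 (SE 0.09). Gpi1 had the smallest spread of the 10 over all 6 libraries, with a coefficient of variation of 4.71%.

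Phosphofructokinase, the committed step, is encoded by liver, muscle and platelet genes whose products form mixed tetramers. Pfkl, the liver type, read 42.95, 37.45 and 30.46 FPKM in wild type and 48.59, 33.89 and 42.03 in knockout, with the lowest value in wild-type replicate 3 and the highest in knockout replicate 1. Its means of 37.0 ± 6.26 and 41.5 ± 7.36 differed by a log2 fold change of 0.16 (SE 0.16), the largest of the 10 and no larger than its error. Pfkp, the platelet type, read 43.06, 38.57 and 46.20 in wild type and 49.02, 38.55 and 45.87 in knockout. The lowest values of Pfkp came from 1 library of each group and were 0.02 FPKM apart, and the log2 fold change was 0.06 (SE 0.12). It turned negative without wild-type replicate 2 or without knockout replicate 1 (-0.01 in each case). Pfkm, the muscle type, read 4.79, 3.91 and 4.72 in wild type and 3.63, 5.32 and 6.43 in knockout. Knockout libraries held both its lowest and its highest value, the log2 fold change was 0.14 (SE 0.18), and without knockout replicate 3 it was -0.01.

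Both groups drew their phosphofructokinase transcripts mainly from Pfkp and Pfkl. Pfkp gave 50.8% ± 5.17 of the summed FPKM of the 3 genes in wild type and 48.9% ± 0.616 in knockout, and Pfkl gave 43.9% ± 5.57 and 45.4% ± 2.32. Pfkm gave 5.32% ± 0.456 and 5.75% ± 1.87. No share passed an exact two-sided permutation test over the 6 libraries (p = 1.0 for Pfkp, 0.8 for Pfkl and 0.8 for Pfkm, adjusted p = 1 over the 3 shares), a test whose smallest possible p is 0.1. Wild-type replicate 3 stood apart with 37.4% Pfkl and 56.8% Pfkp, and without it the differences of both shares changed sign, to -1.70 percentage points for Pfkl and 1.04 for Pfkp. The Pfkm difference of 0.43 points also changed sign without knockout replicate 2 (-0.12) or 3 (-0.11).

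Aldoa, aldolase A, cleaves fructose-1,6-bisphosphate into trioses. It read 726.24, 750.55 and 725.85 FPKM in wild type and 758.32, 844.70 and 822.66 in knockout. On the FPKM scale all 3 knockout values lay above all 3 wild-type values, which held for 1 of the 10 enzymes and for 4.53% of all genes tested. That count depends on library scaling and was not repeated with libraries rescaled. The gap between the groups was small, from 750.55 to 758.32, and the means were 734 ± 14.1 and 809 ± 44.9, a log2 fold change of 0.14 (SE 0.11, 95% interval -0.11 to 0.38). The difference did not pass limma's test (adjusted p = 0.9995).

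Tpi1, triosephosphate isomerase, interconverts the trioses. It read 241.30, 217.69 and 229.17 FPKM in wild type and 244.54, 252.48 and 223.52 in knockout, with knockout replicate 3 inside the wild-type range, and its log2 fold change was 0.07 (SE 0.10). Gapdh, the dehydrogenase that makes NADH and is widely used as a reference gene, read 1786.34, 1772.25 and 1601.60 in wild type and 1871.86, 1927.19 and 1776.40 in knockout. Wild-type replicate 3 was low and knockout replicates 1 and 2 were above every wild-type library, so the groups overlapped through knockout replicate 3. The means of Gapdh were 1720 ± 103 and 1858 ± 76.3, and the log2 fold change was 0.11 (SE 0.13).

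Pgk1, phosphoglycerate kinase, forms the first ATP of the pathway and is X-linked. It read 204.15, 171.13 and 151.59 FPKM in wild type and 204.09, 171.28 and 161.02 in knockout, so the groups covered almost the same range. Its log2 fold change of 0.03 (SE 0.14) was the smallest of the 10 and was -0.07 without wild-type replicate 3 or without knockout replicate 1. Pgam1, phosphoglycerate mutase, read 147.33, 152.63 and 133.50 in wild type and 158.46, 144.79 and 149.79 in knockout, with a log2 fold change of 0.06 (SE 0.10). Only wild-type replicate 3 and knockout replicate 1 lay outside the range the groups shared. Eno1, enolase 1, which yields phosphoenolpyruvate, read 326.67, 309.41 and 293.59 in wild type and 376.47, 314.26 and 316.37 in knockout. Knockout replicate 1 was the high library for Eno1 and the others overlapped, and the log2 fold change was 0.11 (SE 0.11).

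Many of the enzymes were lowest or highest in the same libraries. Wild-type replicate 3 was the lowest library for 7 of the 10 (Gpi1, Pfkl, Aldoa, Gapdh, Pgk1, Pgam1 and Eno1), and only Pfkp was above its own mean there. Knockout replicates 1 and 2 were the highest for 4 each. The shares of all tested genes that were lowest or highest in these libraries were not counted. Summed over the 10 genes, the level was 3765, 3697 and 3447 FPKM in wild type and 3957, 3997 and 3798 in knockout. As a share of each library's total FPKM that is 0.850%, 0.833% and 0.771% in wild type and 0.901%, 0.835% and 0.859% in knockout. Gapdh gave 46.5% to 48.2% of this sum and Aldoa 19.2% to 21.7%. On the FPKM scale the groups did not overlap in it, whereas as a share of the total knockout replicate 2 fell below wild-type replicate 1.

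**Figure D3:**
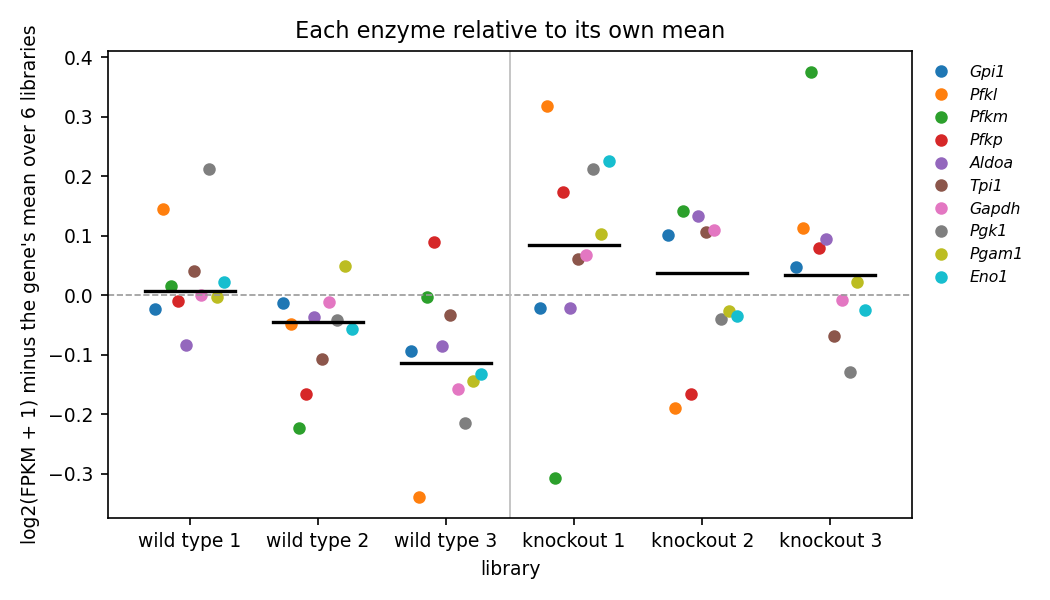
Each enzyme's log2(FPKM + 1) in a library minus that gene's mean over the 6 libraries. Points are genes and black bars are the medians of the 10 genes. The median is lowest in wild type 3 (-0.11) and highest in knockout 1 (0.08), and Pfkl and Pfkm are the widest spread genes.

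The enzymes differed among themselves in how steady they were. The coefficient of variation over the 6 libraries was under 10% for Gpi1, Pgam1 (5.70%), Tpi1 (5.72%), Gapdh (6.20%), Aldoa (6.54%), Eno1 (8.81%) and Pfkp (9.87%). It was 12.5% for Pgk1, 16.8% for Pfkl and 21.0% for Pfkm, whose counting error is also the largest of the 10. The median of the 10 was 7.67%, beside 13.0% over all tested genes and 10.2% over the 3954 genes with a mean of 20 FPKM or more. Against 14 usual reference genes (median 9.94%), Gapdh varied less than 12, including Actb (11.9%) and B2m (12.9%), and more than Tbp (5.59%) and Sdha (4.18%). The reference genes of smallest p included Tfrc (37.1 ± 7.87 and 27.2 ± 2.25 FPKM) and Gusb (17.003 ± 1.73 and 19.6 ± 4.29), neither of them called. Rescaling every library to the same total put Gapdh at 5.56% and the median of the 10 at 8.87%.

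**Figure D4:**
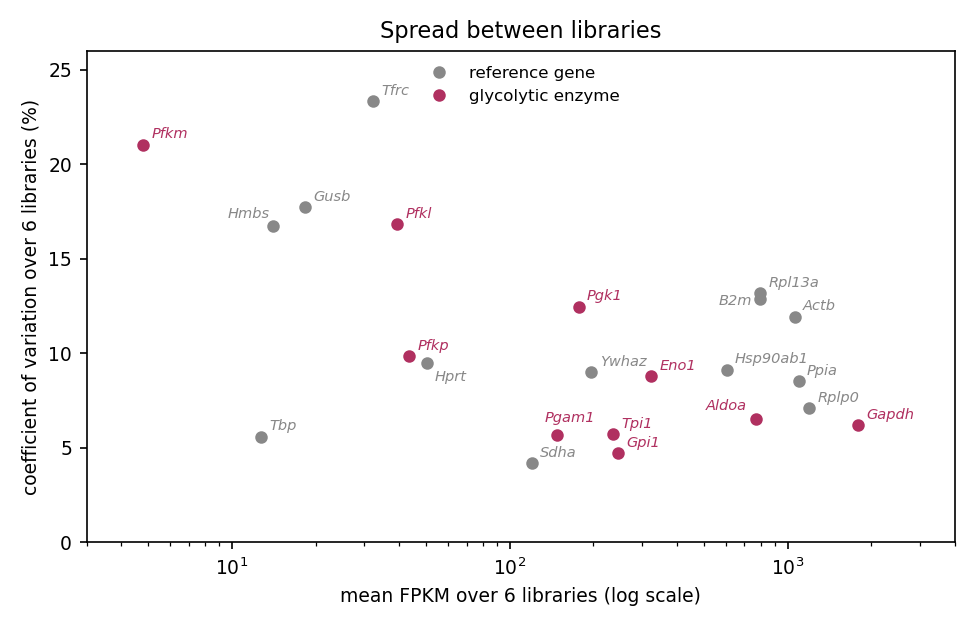
Coefficient of variation of FPKM over the 6 libraries (%) against mean FPKM (log axis) for the 10 enzymes in red and 13 of the reference genes in grey. Gapdh and Aldoa sit low on the right at 6.20% and 6.54%, and Pfkl and Pfkm stand above the other enzymes at 16.8% and 21.0%.

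The tissue isozymes of these steps were measured beside them. Eno3, the muscle enolase, was above both main phosphofructokinases at 89.0 ± 13.0 and 78.8 ± 8.71 FPKM and made up 15.7% to 23.9% of enolase FPKM, against 75.4% to 83.5% for Eno1. Eno2, the neuronal form, lay between 2.71 and 4.38 FPKM, Aldoc between 6.46 and 8.28, and Pgam2, the muscle mutase, between 1.94 and 2.72. Gapdhs, the sperm form, was between 0.27 and 0.81 FPKM and was not tested, and no value is given for Pgk2.

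**Figure D5:**
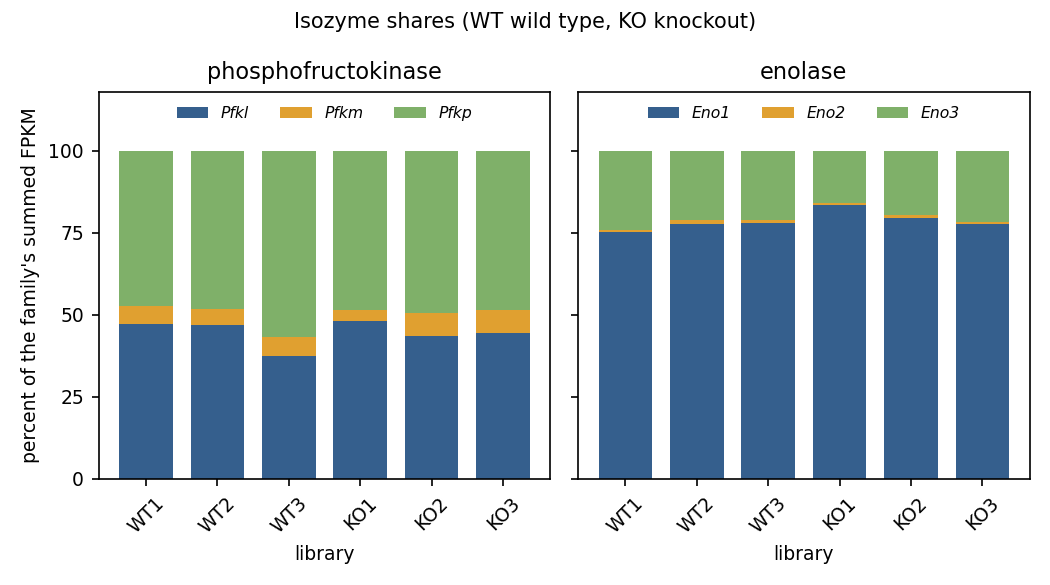
Percent of the summed FPKM of the phosphofructokinase and enolase genes held by each isozyme in each library (WT wild type, KO knockout). Pfkp exceeds Pfkl in all 6 libraries, most in wild type 3 (56.8% against 37.4%) and barely in wild type 1 (47.4% against 47.3%). Eno1 holds at least 75.4% of the enolase sum, and Eno1b, at most 0.0633%, is not drawn.

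The rest of the pathway did not show a common sign. Of 22 tested genes for glucose uptake, hexokinase, isozymes, pyruvate and lactate steps and phosphofructokinase regulation, 0 were called, 12 had positive and 10 negative log2 fold changes, and the median was 0.00. Among those described here Hk2, hexokinase 2, had the smallest unadjusted p (0.0340). It makes the glucose-6-phosphate that Gpi1 uses, and its wild-type mean was 34.2 ± 8.14 FPKM and its knockout mean 51.7 ± 13.5 (log2 fold change 0.57, SE 0.22). Pfkfb2 and Pfkfb3 make fructose-2,6-bisphosphate, the activator of phosphofructokinase. Pfkfb2 was at 12.8 ± 1.72 and 10.02 ± 1.2001 FPKM and Pfkfb3 at 4.57 ± 1.195 and 6.09 ± 1.39, so their differences had opposite signs. Slc2a1, a glucose transporter, was at 67.3 ± 3.80 and 77.2 ± 9.47, Slc16a3, which exports lactate, at 5.74 ± 0.963 and 9.41 ± 4.68, and Hk1 at 80.7 ± 3.44 and 70.6 ± 8.08. Downstream of Eno1, Pkm, the main pyruvate kinase gene here, was at 469 ± 45.2 and 464 ± 25.98 FPKM, and the lactate dehydrogenase gene Ldha at 464 ± 36.8 and 498 ± 9.67 (both named after their values were seen). Of 6 tested gluconeogenesis genes 0 were called, with 4 positive and 2 negative. Pcx, pyruvate carboxylase, was at 25.9 ± 2.35 and 23.7 ± 2.12, Pck2 at 8.19 ± 0.700 and 8.76 ± 0.896, and G6pc3, a glucose-6-phosphatase, at 33.6 ± 5.43 and 34.6 ± 0.867.

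Hypoxia-inducible genes and smooth muscle markers are given here beside the enzymes. Of 19 tested hypoxia-inducible genes outside the run, 13 had positive and 6 negative fold changes (median 0.15) and 0 were called. Their summed FPKM was 325 to 445 in wild type and 405 to 478 in knockout, lowest in wild-type replicate 3 as for the enzymes, but within the knockouts it was highest in replicate 3, where the enzyme sum was lowest. Ankrd37 (4.90 ± 3.18 and 18.6 ± 4.12 FPKM), Adm (4.09 ± 0.441 and 5.85 ± 0.422) and the oxygen sensor Egln3 (40.0 ± 17.05 and 61.8 ± 17.6) had the smallest p. Smooth muscle markers, 10 of 10 with positive fold changes and none called, summed to 2777 to 3792 FPKM in wild type and 2980 to 4581 in knockout. The sum was highest in knockout replicate 3, the library where Pfkm was highest. Knockout replicates 1 and 2, at 3173 and 2980 FPKM, lay inside the wild-type range. The lowest sum was in wild-type replicate 1, where the enzyme sum was the highest of the wild types. The part of hypoxia-inducible genes and smooth muscle in the values of the enzymes was not tested. In whole tissue, fewer cells of a type and less RNA per cell cannot be told apart.

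Markers of other cell types gave no common pattern. Epithelial markers had 6 positive and 6 negative fold changes with sums of 8343 to 8994 FPKM in wild type and 8134 to 9403 in knockout. Fibroblast markers (6 of 7 positive) summed to 585 to 738 and 640 to 710, leukocyte markers (5 of 9 positive) to 68.3 to 122 and 71.4 to 98.3, and red blood cell markers (4 of 4 positive) to 57.1 to 141 and 70.5 to 119. Neuron and glia markers (4 of 5 positive) summed to 20.2 to 23.5 and 20.8 to 26.1, endothelial markers (2 of 4) to 37.3 to 39.8 and 32.9 to 42.6, striated muscle markers (2 of 3) to 9.23 to 17.2 and 10.5 to 16.2, and adipocyte markers (1 of 1 tested) to 0.18 to 5.06 and 1.95 to 9.09. No marker was called, and no marker was at 0 in all 6 libraries.

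The genes whose pattern over the 6 libraries was most like the median pattern of the 10 enzymes were sought among 3879 tested genes with a mean of 20 FPKM or more that were in no list. The measure was the root mean square distance between log2(FPKM + 1) profiles centred on their means. Foxa1, an epithelial transcription factor, was nearest at 0.012, and Rrp1 (0.016), Mrpl37 (0.020), Pigs (0.021) and Cdc123 (0.022) followed, beside a median of 0.14 over those genes. A gene with no variation would lie at 0.064 and 200 genes were nearer than that. Foxa1 read 35.36, 34.26 and 33.09 FPKM in wild type and 37.08, 36.27 and 36.38 in knockout. These 5 were picked for likeness to the enzymes' median pattern, so the traits they share with it follow from that choice. All 5 were, like most of the enzymes, lowest in wild-type replicate 3. Their knockout means were 1.06 to 1.07 times the wild-type means.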

How the data were processed

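Poly-A RNA of 6 distal colon samples was sequenced without a step that marks strand, per the labels' protocols. The authors deposited FPKM with 2 decimals for 19844 genes, 1 column per library. HISAT2, RSEM and the mm39 build are named in the submitters' processing notes, with no versions. The 13247 genes that reached 1 FPKM in 3 or more libraries were tested as log2(FPKM + 1) with limma 3.58.1 in R 4.3.3 (mean-variance trend, two-sided, genotype alone, Benjamini-Hochberg over all genes, threshold 0.05). The fit was tested on simulated data. That test used independent values and changes larger than those of the enzymes, so it gives no power for changes of their size. Depth came from 350 short non-coding genes of up to 150 bases, fitted per library with a length offset of 36 bases. Between 83.8% and 90.1% of 111 to 138 values per library then lay within 0.05 of a whole number of reads. Depth and offset were chosen to make that share largest, so it is no check on them. Other genes' reads were not recovered. Intervals and counting errors cover only what they name. Gene names, promoters and shared stretches used RefSeq GRCm38.p6 and GENCODE M21 tables, and 19794 identifiers matched. Python 3.11.15, numpy 2.4.6, pandas 2.3.3, scipy 1.17.1 and matplotlib 3.10.9 were used. Members, lists and tests were chosen with earlier results of these data known. The rule for named genes takes all 10 enzymes, Mlxipl, their isozymes, 6 further glycolysis genes, 3 of each other list by smallest unadjusted p, and the 5 genes of most alike profile. Marker lists are given as sums and counts. Alternatives were another pseudocount, no filter, 2 rescalings, no trend, a replicate block and leaving out each library. Some genes that the rule names are withheld for evaluation and are not reported here.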

Additional observations from a re-analysis of the deposited data

How the results depend on the processing

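No enzyme was called under any of 12 alternatives (smallest limma adjusted p 0.796, for Pfkm without knockout replicate 1). With 1 library left out, 55 of the 60 refitted enzyme fold changes were positive, beside 50.3% to 54.1% of all tested genes. These refits share most of their libraries with one another and with the main fit, so the 60 are not separate results. The replicate block, no filter and no trend leave the fold changes as they are, and none turned negative with the other pseudocount or the rescalings. The 5 negative ones were Pfkp without wild-type replicate 2 (-0.011) or knockout replicate 1 (-0.015), Pgk1 without wild-type replicate 3 (-0.071) or knockout replicate 1 (-0.069), and Pfkm without knockout replicate 3 (-0.013). Over all such omissions Pfkp lay between -0.015 and 0.15, Pgk1 between -0.071 and 0.14 and Pfkm between -0.013 and 0.33. The enzymes' median lay between 0.047 and 0.14 with 1 library left out, and was 0.072 with libraries rescaled to the same total and 0.089 rescaled by median ratio. The median over all tested genes moved as well. It was 0.0011 to 0.016 with 1 library left out, -0.014 rescaled to the same total and 0.00077 rescaled by median ratio. Leaving out 1 library gave phosphofructokinase share differences of -1.70 to 3.24 percentage points for Pfkl, -0.12 to 1.51 for Pfkm and -3.64 to 1.04 for Pfkp. Over all genes limma called 2, and 0 or 1 without any 1 library, with 323 to 807 genes at an unadjusted p under 0.05. With the replicate number as a block 0 genes were called in limma (504 at an unadjusted p under 0.05) and each enzyme's fold change was the same. Deviations of same-numbered libraries from their group means correlated at 0.27, -0.096 and 0.063 across genes. Wild-type replicates 2 and 3 did not correlate best with their own number. Deviations within a group cancel, so these correlations depend on one another and cannot settle whether the numbers pair the samples. The cause of the shifts between settings was not tested. Pfkm had the fewest reads of the enzymes, about 249 per library. Its counting error was near 6.34%, beside a coefficient of variation of 21.0%.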
